A study of Mus musculus with 12 samples.

Results

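The genes described here are 34 mouse orthologs of genes near human Alzheimer's disease (AD) risk loci, followed in the hippocampus of APP/PS1 and wild-type (WT) mice. They were taken by symbol from a table of 55573 genes, and all 34 were found there. They were split by textbook roles into 9 microglial genes and 25 others. These 25 are called neuronal or broad, though they include genes of other glia such as Clu and Adamts4. The APP/PS1 line (APPSwe/PS1dE9) holds 2 transgenes behind prion promoter sequence, a mouse/human hybrid APP with the Swedish change and human presenilin 1 without its exon 9. The study sequenced mRNA of whole right hippocampi from 4 APP/PS1 females, 4 APP/PS1 males, 2 WT females and 2 WT males. All 12 animals were 4.5 months old and of the C57BL/6J strain. Whole tissue was used, so each value is a mixture of cell types.

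Genetic studies of late-onset AD point to a few processes in the cells around amyloid plaques. Microglia, the resident phagocytes of the brain, signal through adaptor proteins and remodel actin when they meet plaques. Neurons and other cells take up APP from the surface by clathrin-mediated endocytosis and sort it in early endosomes, where the amyloid peptide can be cut from it. Other genes at these loci encode proteases, lipid carriers, lysosomal membrane proteins and the microtubule protein tau. How the transgenes bear on the transcript levels of these orthologs, and whether females and males differ, is the question the comparisons address.

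Of the 34 members, 30 passed the expression filter (CPM, counts scaled to the library total, with a log2 value of 1 or more in 3 or more libraries) and were tested among 14008 genes: 5 of the 9 microglial members and all 25 others. Cass4, Ms4a6c, Ms4a7 and Scimp did not pass. Library totals ran from 36714316 to 50643565 counts, and members under about 100 counts a library carry a sizeable counting error beside the differences between animals. The summed level of 10 choroid plexus markers was 6989 normalised CPM (CPM after upper-quartile scaling) in APP/PS1 male 2, 4113 in WT female 2 and 3935 in APP/PS1 female 1, against 27.9 to 46.3 in the other 9 libraries. The 12 microglia markers were detected in every library, as were the hippocampal and neuronal markers.

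Levels are first compared between genes per length, as the mean normalised CPM per kilobase of exon over the 12 libraries. Clu, an extracellular chaperone made largely by astrocytes, stood highest at 235. Ptk2b, a calcium-responsive tyrosine kinase, followed at 101. Mapt, which encodes tau, was at 68.9 and Bin1, which bends membranes during endocytosis, at 58.3. The microglial members lay toward the low end: Abi3 was their highest at 1.69, followed by Ms4a6d at 0.981 and Blnk at 0.83. Cass4 was lowest at 0.0603. Among the neuronal or broad members the lowest was Zcwpw1, a reader of histone marks, at 0.956 and below Abi3 and Ms4a6d. Wwox and Cd2ap, also neuronal or broad, were below Abi3 too.

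Averaged over the sexes, Abi3 rose in APP/PS1 and was the single member with an FDR under 0.1, 1 of 30 against 1.9% of all genes tested. Its log2 fold change (LFC) was 0.70 ± 0.15 (SE), 62.3% higher, with an FDR of 0.0388. The median LFC of the 5 microglial members tested was 0.37, and 4 of 5 were higher. By sex the median was 0.48 in females, with 5 of 5 higher, and -0.13 in males, with 2 of 5 higher. The median of the 25 neuronal or broad members was 0.02, with 15 higher, and that of all genes tested was 0.01, with 54.7% higher. None of the 25 was called by edgeR's quasi-likelihood test, its likelihood ratio test or DESeq2, and 5 had an unadjusted p under 0.05, 3 higher and 2 lower. At an unadjusted p under 0.05, 7 members differed, 5 higher and 2 lower, beside 9.57% of all genes. With edgeR's likelihood ratio test and with DESeq2 the count of called members was 2 (Abi3 and Blnk), beside 396 and 399 of 14008 genes. No member tested had its 8 APP/PS1 libraries wholly apart from the 4 WT libraries, where 1.45% of all genes did.

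**Figure D1:**
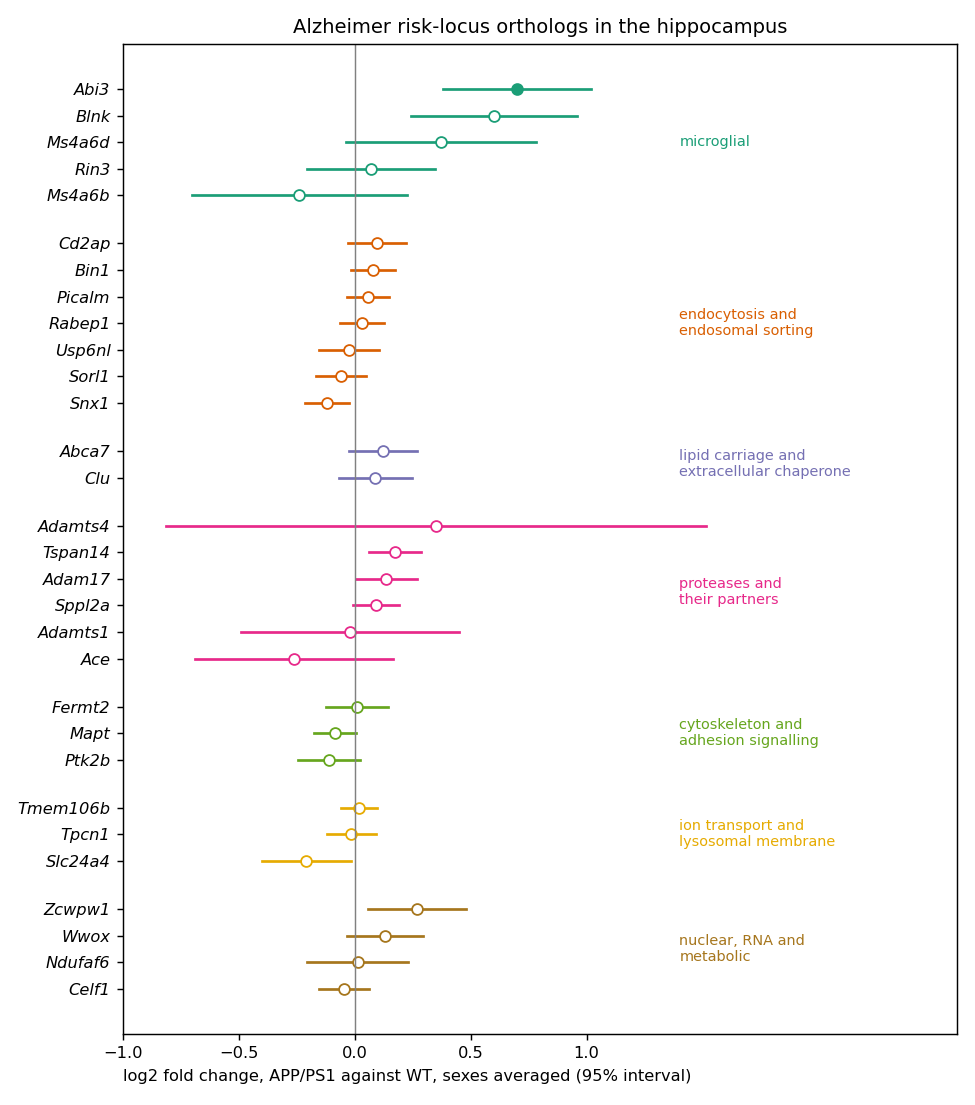
Log2 fold change of APP/PS1 against WT, averaged over the sexes, for the 30 members tested, grouped by role; points are fitted values, lines their 95% intervals, and the filled point is the member with an FDR under 0.1. Abi3, at 0.70, is the filled point. The neuronal or broad members run from -0.26 to 0.35, with wide intervals for Ace, Adamts1 and Adamts4.

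Abi3 (ENSMUSG00000018381) encodes an adaptor of the WAVE complex, which switches on actin branching. It lies on the minus strand of chromosome 11 at 95830074 to 95842476 (GRCm38). Abi3 was at 8.15, 7.29, 10.4 and 7.22 normalised CPM in the APP/PS1 females and at 4.56 and 4.31 in the WT females. In males it was at 9.17, 8.30, 6.36 and 7.33 in APP/PS1 and at 4.64 and 6.52 in WT. All 4 APP/PS1 females lay above both WT females, and 3 of 4 APP/PS1 males above both WT males, the exception lying just under WT male 2. The LFC of Abi3 was 0.93 ± 0.21 in females (FDR = 0.105) and 0.47 ± 0.20 in males (FDR = 0.825), and the interaction of genotype and sex was 0.45 ± 0.29 (FDR = 0.995). These depended on the WT males: without WT male 1 the male LFC of Abi3 was 0.24 and the interaction 0.65, and without WT male 2 they were 0.74 and 0.14. Without WT female 1, WT female 2 or WT male 1 the averaged FDR of Abi3 was 0.146, 0.160 and 0.112, with LFCs of 0.73, 0.67 and 0.57. Without the 3 libraries rich in choroid plexus markers and without factors of unwanted variation, Abi3 had an LFC of 0.65 and was not called. WT female 2 is among the 3, so WT female 1 was the only WT female in that fit. Its exons overlap those of Zfp652, Gngt2 and Phospho1 on the opposite strand, and the strand setting of the counting is not given in the sources used here. Those partners, looked up after the values of Abi3 were seen, gave LFCs of -0.01 (Zfp652) and 0.36 (Gngt2, FDR = 0.549), while Phospho1 had 1 to 7 counts.

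Blnk (chromosome 19, 40928927 to 40994535, minus strand) encodes an adaptor that passes signals from Syk to phospholipase C gamma and Vav, best known from B cells. It was at 5.96, 4.69, 7.5 and 7.77 normalised CPM in APP/PS1 females, against 3.72 and 5.01 in WT females. In males Blnk was at 4.73, 4.61, 4.44 and 5.35 in APP/PS1 and 3.67 and 2.20 in WT. The male groups did not overlap, while in females 1 APP/PS1 library lay under WT female 2. The averaged LFC of Blnk was 0.60 ± 0.17, with an FDR of 0.137, and it was called in 6 of 23 alternative settings, with FDRs from 0.0265 to 0.521. Its LFC was 0.48 ± 0.24 in females and 0.72 ± 0.24 in males (FDR = 0.56). The B lymphocyte markers Cd79a, Cd79b and Ms4a1 summed to 0.278 to 0.531 normalised CPM in APP/PS1 females against 0.185 to 0.197 in WT females, and to 0.127 to 0.547 in APP/PS1 males against 0.137 to 0.157 in WT males. These are few counts a library, they did not overlap in females, and their part in the values of Blnk was not tested.

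Rin3 encodes an exchange factor of the endosomal GTPase Rab5. It was at 2.88, 3.26, 3.79 and 2.89 normalised CPM in APP/PS1 females and 2.90 and 2.56 in WT females. In males Rin3 was at 2.50, 2.32, 2.32 and 2.99 in APP/PS1 and at 2.70 and 2.96 in WT, so the genotypes overlapped in both sexes. Its averaged LFC was 0.07 ± 0.13, with a 95% interval of -0.21 to 0.34.

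The Ms4a genes encode membrane-spanning proteins of myeloid cells, and their human cluster is a known AD locus. Ms4a6b, Ms4a6c and Ms4a6d are close copies on chromosome 19, so stretches of their coding sequence are shown to let the likeness be seen. They were read from the GENCODE M21 transcripts (GRCm38), in the 5′ to 3′ sense direction. Capitals mark positions at which the 3 copies are not all the same. The 60 coding bases most alike, coding bases 100 to 159 in each, differ at 2 positions:
Ms4a6b: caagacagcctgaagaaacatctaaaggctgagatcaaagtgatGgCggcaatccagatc
Ms4a6c: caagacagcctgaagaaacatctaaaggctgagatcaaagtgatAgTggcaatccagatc
Ms4a6d: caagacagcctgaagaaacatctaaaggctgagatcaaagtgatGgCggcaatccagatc

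The 60 coding bases least alike, coding bases 333 to 392 in each, differ at 23 positions:
Ms4a6b: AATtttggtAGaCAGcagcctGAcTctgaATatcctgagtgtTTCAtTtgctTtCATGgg
Ms4a6c: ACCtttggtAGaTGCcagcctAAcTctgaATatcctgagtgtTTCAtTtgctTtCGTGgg
Ms4a6d: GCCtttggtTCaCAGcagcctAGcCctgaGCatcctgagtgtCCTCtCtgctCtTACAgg

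Over the aligned coding bases the identity was 85.0% between Ms4a6b and Ms4a6c, 79.6% between Ms4a6b and Ms4a6d, and 76.2% between Ms4a6c and Ms4a6d. The longest identical runs were 55, 81 and 44 bases in the same order. No 150-base stretch, the length of a read in the study, is shared by transcripts of any pair, though shorter trimmed reads could be. Ms4a6b lies at 11516512 to 11531256 (plus strand), Ms4a6c at 11469366 to 11482192 (plus) and Ms4a6d at 11586604 to 11604849 (minus).

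Ms4a6d was at 2.04, 1.75, 1.90 and 2.03 normalised CPM in APP/PS1 females, all above the 0.923 and 1.16 of the WT females. In males Ms4a6d was at 2.16, 1.93, 1.35 and 1.47 in APP/PS1 and at 1.47 and 2.24 in WT, which overlapped. These are 35 to 114 counts a library. Its LFC was 0.91 ± 0.28 in females (unadjusted p = 0.00663, FDR = 0.283), -0.16 ± 0.25 in males and 0.37 ± 0.19 averaged (FDR = 0.571). The interaction was 1.07 ± 0.38, with an unadjusted p of 0.0141 and an FDR of 0.995. Without WT male 2 the male LFC of Ms4a6d was 0.19.

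Ms4a6b went the other way on average, with an LFC of -0.24 ± 0.21 and an interval of -0.70 to 0.22. It was at 2.50, 1.19, 1.17 and 2.39 normalised CPM in APP/PS1 females, on both sides of the 1.58 and 1.51 of WT females. In males Ms4a6b was at 1.54, 1.5, 1.17 and 1.32 in APP/PS1, all under the 2.39 and 1.67 of WT. Its LFC was 0.13 ± 0.31 in females and -0.61 ± 0.29 in males (FDR = 0.917). Without WT female 2 the female LFC of Ms4a6b was -0.022. Of 6 markers of perivascular macrophages, another myeloid cell of the brain, 3 were tested (Cd163, F13a1 and Mrc1). In males all 3 were lower, with a median LFC of -0.78 and 2 at an unadjusted p under 0.05, and in females 2 were higher, with a median of 0.33. Their interaction of genotype and sex was above 0 for all 3, with a median of 0.84, and no FDR in these contrasts was under 0.1. The summed level of the 6 was 9.41 to 11.5 normalised CPM in APP/PS1 females and 6.99 to 12.5 in WT females, and 7.20 to 10.1 in APP/PS1 males and 9.94 to 12.5 in WT males, with no marker at 0 in any library. The part of these cells in the values of Ms4a6b and Ms4a6d was not tested. The Ms4a neighbours listed beside these genes did not pass the expression filter.

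**Figure D2:**
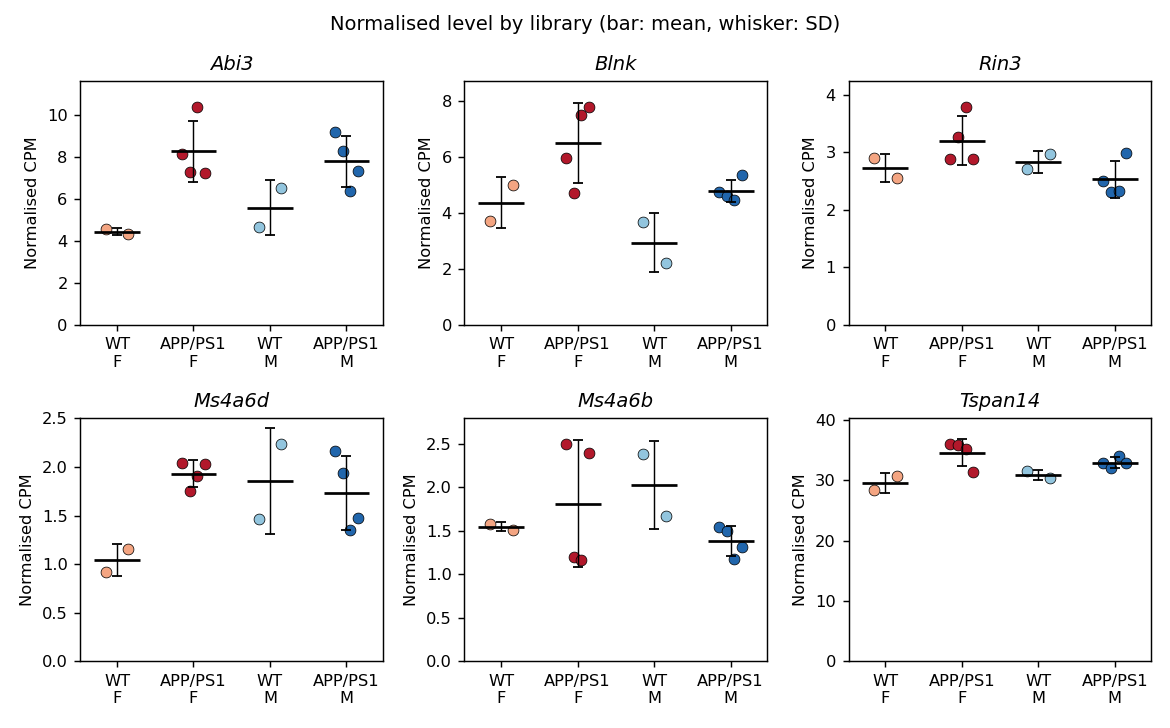
Normalised CPM of Abi3, Blnk, Rin3, Ms4a6d, Ms4a6b and Tspan14 in each library by genotype and sex (F, female; M, male); bars are means and whiskers SDs of 4 APP/PS1 or 2 WT libraries. Abi3 is above both WT libraries in all 4 APP/PS1 females and Tspan14 in all 8 APP/PS1 libraries within their sex, while the Rin3 groups overlap.

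The 4 members below the filter were compared over the 8 APP/PS1 and 4 WT libraries by a two-sided exact permutation test on log2(CPM + 0.5). The CPM in this test were not upper-quartile scaled, and 0.00202 is the smallest p the design allows. Scimp, an adaptor of Toll-like receptor signalling, had 5, 5, 3 and 6 counts in APP/PS1 females, 3, 2, 5 and 5 in APP/PS1 males, 0 and 0 in WT females and 0 and 1 in WT males. It was thus above the WT libraries in all 8 APP/PS1 libraries (exact permutation p = 0.00202), where 0.423% of genes with a count below the filter did not overlap. That share includes genes with too few counts to separate the libraries, and no share matched on counts was computed. The 34 counts of Scimp against 1 gave a ratio of 18.2, with an exact 95% counting interval of 3.06 to 741. This interval covers counting error only. In edgeR's fit without an expression filter the FDR of Scimp was 0.101.

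Ms4a6c was at 2.45, 0.981, 1.97 and 1.97 normalised CPM in APP/PS1 females and 0.87 and 1.18 in WT females. In males Ms4a6c was at 1.57, 1.37, 0.586 and 0.888 in APP/PS1 and 0.944 and 1.69 in WT, and the exact permutation p was 0.501. Ms4a7 had 19, 14, 11 and 19 counts in APP/PS1 females, 12, 24, 12 and 3 in APP/PS1 males, 3 and 13 in WT females and 8 and 9 in WT males (exact permutation p = 0.101). Cass4, a scaffold of adhesion signalling, had 5, 13, 10 and 20 counts in APP/PS1 females, 20, 18, 16 and 14 in APP/PS1 males, 7 and 16 in WT females and 14 and 3 in WT males (exact permutation p = 0.188). All 3 therefore overlapped between genotypes.

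All 12 microglia markers were higher on average, 9 of them with an FDR under 0.1, and the median LFC was 0.72, including P2ry12 at 0.59 and Gpr34 at 1.06. In females, 12 of 12 markers (median LFC 0.76) and 5 of the 5 microglial members tested (median 0.48) were higher. In males, 12 of 12 markers were higher with a median LFC of 0.67, while 2 of the 5 microglial members tested were higher. None of the lower members in males had an unadjusted p under 0.05. The summed level of the 12 markers was 545 to 756 normalised CPM in APP/PS1 females and 496 to 696 in APP/PS1 males. It was 327 to 385 in WT females and 375 to 386 in WT males. None of the 12 was at 0 in any library. In whole tissue, more cells of a type and more RNA per cell cannot be told apart.

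Set against this sum, Abi3 was at 12.4 to 13.7 normalised CPM per 1000 of summed markers in the 8 APP/PS1 libraries and at 11.8 to 16.9 in the 4 WT libraries, so the genotypes overlapped. Blnk likewise was at 6.79 to 14.3 in APP/PS1 and 5.69 to 15.3 in WT. The ratio of Rin3 was at 3.45 to 5.89 in APP/PS1 and 7.21 to 7.82 in WT, without overlap. The marker sum itself did not overlap between the genotypes, and 76.6% of all genes tested, 23 of the 30 members among them, had a ratio that was lower in all 8 APP/PS1 libraries. The ratio of Scimp was higher in all 8, at 0.0758 to 0.306 against 0 to 0.0508. It rests on the few counts given above, 0 in 3 WT libraries, and the share of genes with a higher ratio in all 8 was not counted. Ms4a6b per 1000 of summed markers was at 1.55 to 4.38 in APP/PS1 and 4.11 to 6.37 in WT, which overlapped. These ratios are descriptions and were not tested.

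**Figure D3:**
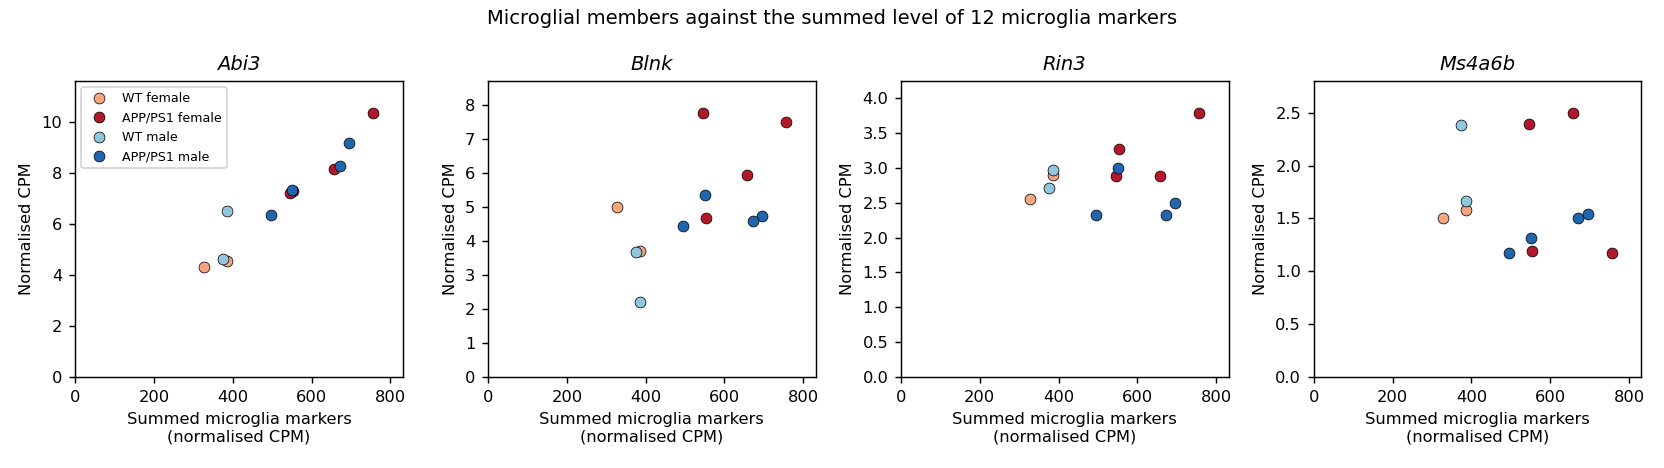
Normalised CPM of Abi3, Blnk, Rin3 and Ms4a6b against the summed normalised CPM of 12 microglia markers, 1 point per library coloured by genotype and sex. The sums are 327 to 386 in WT and 496 to 756 in APP/PS1; Abi3 is higher where the sum is higher, and Rin3 stays between 2.32 and 3.79.

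Genes that act with the microglial members were counted next. For comparison, 1.9% of all genes tested were called on average. Of 16 genes for immunoreceptor adaptors and their effectors, 15 were tested, 11 were higher and 2 were called, with a median LFC of 0.36. The called ones were Lat2, an adaptor of myeloid cells (LFC 1.30 ± 0.26, FDR = 0.0361), and Vav1 (0.69 ± 0.17, FDR = 0.0783). Of the 10 WAVE-complex genes 4 were higher and 6 lower, with a median of -0.005. Nckap1l, the subunit of blood and myeloid cells, was the called one among them (0.62 ± 0.10, FDR = 0.00685). Abi3 and Nckap1l thus moved in the same direction, while the other 9 genes of the complex were not called.

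The 7 endocytosis and endosomal sorting members ranged in averaged LFC from -0.12 to 0.10, with a median of 0.03, and none was called by edgeR's quasi-likelihood test, its likelihood ratio test or DESeq2. Snx1, a sorting nexin of the retromer coat, was lower at an unadjusted p of 0.0181 (LFC -0.12 ± 0.04, FDR = 0.361). It was at 75.4, 73.3, 77.0 and 77.5 normalised CPM in APP/PS1 females and 77.0 and 84.5 in WT females. In males Snx1 was at 70.3, 71.0, 73.0 and 72.3 in APP/PS1, all under the 76.3 and 82.5 of WT (LFC -0.15 ± 0.06). Bin1 had an averaged LFC of 0.08 ± 0.04 and one of 0.16 ± 0.06 in males (FDR = 0.745), where it was at 219 to 271 normalised CPM in APP/PS1 and 214 in both WT libraries. Picalm, a clathrin assembly protein, had the lowest coefficient of variation of the 34 members, 4.56%, with 155 to 184 normalised CPM and an averaged LFC of 0.06. Sorl1, a receptor that carries APP away from endosomes, was at 366 to 476 (LFC -0.06), Rabep1, an effector of Rab5, at 163 to 191 (LFC 0.03), and Usp6nl, which inactivates Rab5, at 19.5 to 24.0 (LFC -0.02).

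Of 23 Rab5 and clathrin genes, 11 were higher and 12 lower, with a median LFC of -0.001, none was called by the quasi-likelihood test, and 0 had an unadjusted p under 0.05. Of 13 retromer and sorting-receptor genes, 7 were higher and 0 were called. At an unadjusted p under 0.05, 4 differed, 2 in each direction, beside 9.57% of all genes.

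Cd2ap, a scaffold that links endocytosis to actin, and Ace, the angiotensin-converting enzyme, stood apart in the 3 libraries with high choroid plexus markers. Ace was at 107 normalised CPM in APP/PS1 male 2, 89.5 in WT female 2 and 62.7 in APP/PS1 female 1, and at 8.70 to 12.5 in the other 9 libraries. Cd2ap was at 32.9, 26.2 and 31.3 in the same 3 libraries, in that order, and at 20.8 to 23.8 elsewhere. The other 32 members overlapped between the 3 libraries and the 9. In the fit with its 2 factors of unwanted variation, Ace had an averaged LFC of -0.26 ± 0.19 and Cd2ap of 0.10 ± 0.06 (FDR = 0.645). Without these factors the LFC of Ace was 0.26 ± 1.02, and without the 3 libraries it was -0.15 ± 0.13.

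**Figure D4:**
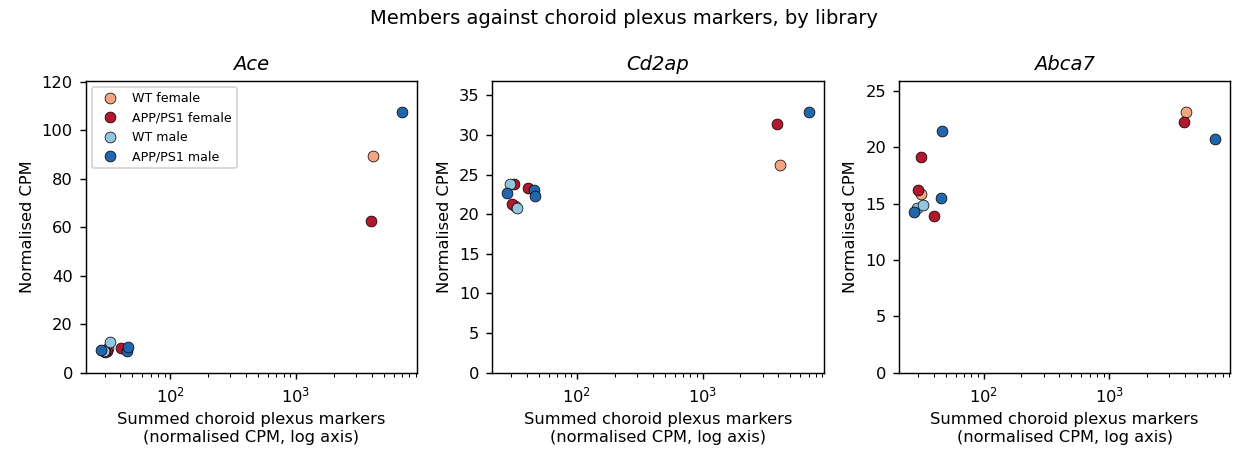
Normalised CPM of Ace, Cd2ap and Abca7 against the summed normalised CPM of 10 choroid plexus markers (log axis), 1 point per library coloured by genotype and sex. The 3 libraries on the right, at 3935 to 6989, hold the highest Ace and Cd2ap values, while Abca7 overlaps.

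Among the 6 proteases and their partners, Tspan14, a tetraspanin that escorts the sheddase ADAM10, was at 36.0, 35.9, 35.1 and 31.3 normalised CPM in APP/PS1 females and 28.3 and 30.7 in WT females. In males Tspan14 was at 32.9, 32.0, 34.1 and 32.8 in APP/PS1 and 31.5 and 30.3 in WT. All APP/PS1 libraries lay above the WT libraries of their own sex, which no other member tested did in both sexes and 2.26% of all genes tested did in 1 direction. The averaged LFC of Tspan14 was 0.17 ± 0.05, 12.7% higher (unadjusted p = 0.00492, FDR = 0.184), and it was called in none of 23 alternative settings, with FDRs from 0.141 to 0.572. It was 0.26 ± 0.07 in females (FDR = 0.22) and 0.09 ± 0.07 in males. Adam17, the sheddase of tumour necrosis factor, had an averaged LFC of 0.14 ± 0.06 (FDR = 0.496), with levels of 16.1 to 22.1 in APP/PS1 and 15.8 to 18.5 in WT. Adamts4, a secreted protease of oligodendrocytes, ranged from 5.62 to 34.5 normalised CPM, with an averaged LFC of 0.35 and a 95% interval of -0.81 to 1.52. Adamts1, a related protease, ranged from 14.2 to 31.0 (averaged LFC -0.02), and Sppl2a, an intramembrane protease, from 59.9 to 77.7 (LFC 0.09). Of 20 ADAM regulators and relatives 16 were tested, 8 were higher and 0 were called by the quasi-likelihood test. At an unadjusted p under 0.05, 2 of the 16 differed, beside 9.57% of all genes.

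Clu was at 662 to 946 normalised CPM over the 12 libraries, with an averaged LFC of 0.09 ± 0.07. Abca7, a lipid transporter, was at 22.3, 19.2, 16.2 and 13.9 normalised CPM in APP/PS1 females and 15.8 and 23.1 in WT females. In males Abca7 was at 15.5, 20.7, 14.3 and 21.4 in APP/PS1 and 14.6 and 14.9 in WT. The genotypes overlapped in both sexes, and the averaged LFC was 0.12 ± 0.07 (FDR = 0.601).

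Mapt was at 476, 569, 496 and 496 normalised CPM in APP/PS1 females and 568 and 528 in WT females. In males Mapt was at 518, 466, 496 and 532 in APP/PS1 and 512 and 574 in WT, with an averaged LFC of -0.08 ± 0.04 (FDR = 0.56). The levels overlapped in both sexes. Ptk2b was at 643, 690, 720 and 744 in APP/PS1 females and 928 and 704 in WT females, so the female difference came with 1 high WT library. Its LFC was -0.26 ± 0.09 in females (FDR = 0.342), with an FDR of 0.0501 without WT female 2 and an LFC of -0.04 without WT female 1. The interaction of genotype and sex for Ptk2b was -0.29 ± 0.12 (unadjusted p = 0.0392) but -0.06 ± 0.11 without WT female 1. Fermt2, a kindlin that activates integrins, was at 67.6 to 87.1 with an averaged LFC of 0.01 ± 0.06. Its relatives Fermt3, the kindlin of blood and myeloid cells (0.71 ± 0.15, FDR = 0.0360), and Fermt1 (0.92 ± 0.23, FDR = 0.0959) were called. They were 2 of 14 integrin adhesion genes, beside 1.9% of all genes tested.

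Slc24a4, a potassium-dependent sodium/calcium exchanger, was at 26.9, 25.0, 25.6 and 29.3 normalised CPM in APP/PS1 females, all under the 35.3 and 33.0 of WT females. In males Slc24a4 was at 22.7, 27.5, 27.4 and 31.3 in APP/PS1 and 25.8 and 32.0 in WT, which overlapped. The LFC was -0.34 ± 0.13 in females (FDR = 0.378) and -0.21 ± 0.09 averaged (FDR = 0.449). Tpcn1, a cation channel of endosomes and lysosomes, was at 33.2 to 44.1 normalised CPM (averaged LFC -0.01) and Tmem106b, a lysosomal membrane protein, at 251 to 317 (LFC 0.02).

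Zcwpw1 was at 6.69, 5.89, 6.58 and 5.41 normalised CPM in APP/PS1 females and 4.48 and 5.53 in WT females. In males Zcwpw1 was at 5.18, 5.90, 5.43 and 5.07 in APP/PS1, all above the 4.35 and 4.85 of WT. Its averaged LFC was 0.27 ± 0.10 (unadjusted p = 0.0168, FDR = 0.35), and its exons overlap Pilra, a myeloid receptor gene, by 468 bases on the opposite strand. The part of Pilra in the values of Zcwpw1 was not tested. Of the 34 members, 11 have exons that overlap another gene on the opposite strand. Celf1, an RNA-binding protein, was at 45.6 to 53.3 normalised CPM (averaged LFC -0.05), Wwox, an oxidoreductase with WW domains, at 12.4 to 15.9 (LFC 0.13), and Ndufaf6, an assembly factor of respiratory complex I, at 5.30 to 7.66 (LFC 0.01).

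The precision of these comparisons differed between members. Of the 25 neuronal or broad members, 20 had a 95% interval of the averaged LFC within -0.3 to 0.3, and 23 within -0.5 to 0.5, Ace and Adamts4 being the exceptions. With 2 WT animals a sex, the smallest difference that could be resolved varied by member. The SE of the averaged LFC was 0.036 for Tmem106b and 0.48 for Adamts4.

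By sex, no member had an FDR under 0.1 in females (0.771% of all genes did) or in males (0.171%) in edgeR's quasi-likelihood test. The likelihood ratio test called Abi3 and Ms4a6d in females, among 288 of 14008 genes, and DESeq2 called Abi3, among 296. Both called 0 members in males, where they called 142 and 146 genes. At an unadjusted p under 0.05, 7 members differed in females (9.79% of all genes) and 4 in males (5.7%). In females, 8 members had APP/PS1 and WT libraries that did not overlap, where 19.2% of all genes did, and in males 6, where 10.8% did. The interaction of genotype and sex called 0 members and 0% of all genes, and 2 members, Ms4a6d and Ptk2b, had an unadjusted p under 0.05 (4.03% of all genes). The likelihood ratio test and DESeq2 also called 0 members for the interaction, beside 12 and 9 of all genes.

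**Figure D5:**
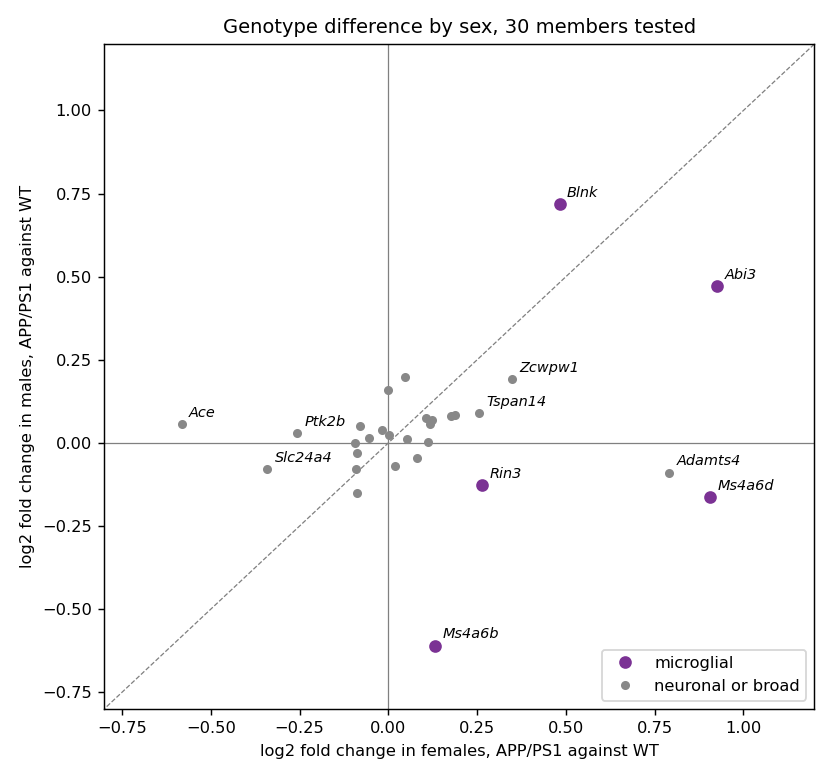
Log2 fold change of APP/PS1 against WT in females (horizontal) and males (vertical) for the 30 members tested; purple points are microglial members, grey points the others, and the dashed line marks equal values. Abi3 (0.93, 0.47) and Blnk (0.48, 0.72) are higher in both sexes. Ms4a6d (0.91, -0.16) and Ms4a6b (0.13, -0.61) differ in sign between the sexes, though the smaller value of each pair lies within its SE of 0. Most other members lie near 0.

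Between APP/PS1 females and APP/PS1 males, 0 members were called by any of the 3 tests. The quasi-likelihood test called 0.0857% of all genes, the likelihood ratio test 27 genes and DESeq2 30. Of the members, 2 had an unadjusted p under 0.05 (5.35% of all genes). Both were microglial and higher in females: Blnk by an LFC of 0.44 ± 0.18 (FDR = 0.924) and Rin3 by 0.33 ± 0.14 (FDR = 0.924). All 5 microglial members tested were higher in APP/PS1 females than in APP/PS1 males, with a median LFC of 0.33, as were 16 of the 25 neuronal or broad members, 52.6% of all genes tested and 6 of the 12 microglia markers.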

How the data were processed

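Reads were trimmed (Trimmomatic), aligned to GRCm38 (STAR) and tallied by gene (HTSeq) by the authors, who deposited raw counts. Tool versions, the annotation release and the strand and multi-mapping settings are not given in the sources used here. GENCODE M21 gave symbols and positions (55480 of 55573 identifiers matched).

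Groups came from the sample titles. Genes were kept where log2 CPM reached 1 in 3 or more libraries. Upper-quartile scaling was applied, and 2 factors of unwanted variation, from a re-implementation of RUVg with all but the top 5000 genes of a first-pass test as controls, entered as covariates. Differences were tested with the quasi-likelihood method of edgeR (version 4.0.16, under R 4.3.3; two-sided, 1 model for 12 libraries), with Benjamini-Hochberg adjustment over all genes and an FDR threshold of 0.1. The step was tested on simulated data. The study words its filter on the log2 scale, but a filter of CPM at least 1 keeps the gene number it gives, 15521, so both were run, the latter also with its likelihood ratio test. Alternatives included edgeR's likelihood ratio test and DESeq2 1.42.0. The members, role lists and partner lists were chosen with earlier results of these data known. Members called, each other role's member with the smallest averaged p and all microglial members are described library by library; Ptk2b, Ace and Cd2ap were added after their values were seen. Libraries within a group differed by more than sampling noise (chi-square per degree of freedom 11.6 to 52.0). One marker of the B lymphocyte list is not reported here.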

Additional observations from a re-analysis of the deposited data

Results flagged for a closer look

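In groups of 4 libraries, 5 of 68 combinations of member and APP/PS1 group held a library whose gap to the nearest of the others exceeded Dixon's 95% critical value, a share that chance gives in about 1 in 20 groups. Ace was flagged in both sexes: APP/PS1 female 1 was at 62.7 normalised CPM against 8.70 to 10.1 in the other females, and APP/PS1 male 2 at 107 against 8.96 to 10.4 in the other males. Cd2ap was flagged in APP/PS1 male 2, at 32.9 against 22.3 to 23.1. Both libraries are among the 3 with high choroid plexus markers. Celf1 was flagged in APP/PS1 female 4, at 51.6 against 45.8 to 46.6, and Wwox in APP/PS1 male 1, at 15.9 against 13.6 to 14.0. No member had all APP/PS1 libraries moving one way against WT in females and the other way in males.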

How the results depend on the processing

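The count of members called on average was 1 in the main analysis, with 266 of 14008 genes called. It was 2, Blnk being added each time, with the likelihood ratio test (396 of all genes), DESeq2 (399) and no expression filter (320). It was also 2 (Abi3 and Blnk) with the likelihood ratio test and a filter of CPM at least 1 (446), chosen after the data were seen. Over the fits that leave out an APP/PS1 animal it was 1 to 2 (178 to 361 of all genes). The microglial count was the same in each. Abi3 was not called without WT female 1, WT female 2 or WT male 1, or without the 3 choroid plexus-rich libraries and factors. Those fits leave 1 WT animal in a sex. Over all 23 alternatives the averaged LFC of Abi3 was 0.57 to 0.81. In females the count was 0 in the main analysis, with 108 of 14008 genes called. It became 2 with the likelihood ratio test (Abi3 and Ms4a6d, 288 of all genes). Abi3 alone was called with DESeq2 (296), no filter (205), the CPM filter (133), that filter with the likelihood ratio test (321) and 1 factor (108). Over the fits that leave out an APP/PS1 animal the count in females was 0 to 1 (Abi3, with 64 to 156 of all genes). The averaged neuronal or broad count, and the counts in males, for the interaction and between APP/PS1 females and males, were 0 under every alternative run for them. Reversals were listed for 15 members, in chosen contrasts only. Among these, direction reversed for Ms4a6b in females without a filter (-0.018) and without WT female 2 (-0.022, range -0.022 to 0.29 when an animal was left out). It also reversed for Ms4a6d in males without WT male 2 (0.19, range -0.45 to 0.19) and for Ace on average without factors (0.26). Outside that choice others reversed within a sex, such as Ndufaf6 in females (15 of 24 alternatives) and Picalm in males (8 of 24). The cause was not tested. Of the 30 members tested, 9 changed sign on average in some alternative. The averaged LFCs of these 9 ran from -0.87 to 0.30 over all alternatives, reversed or not.

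With the replicate number as a replicate block, 0 members were called on average (Abi3 FDR 0.171, against 0.000676 to 0.280 over all alternatives) and 196 genes in all against 266. Deviations of same-numbered libraries correlated at -0.673 to -0.362 between APP/PS1 and WT females, -0.475 to 0.277 between APP/PS1 females and males, -0.0573 to -0.0232 between APP/PS1 and WT males, 0.0381 to 0.145 between APP/PS1 females and WT males, 0.0811 between WT females and males, and 0.401 to 0.732 between WT females and APP/PS1 males. They were thus not above 0.1 for every pair, and the labels tie no number to a litter or batch, so the numbers were not taken as pairs. Members under about 100 counts a library, such as Ms4a6b, Ms4a6d and Scimp, are limited by depth as well as by the 2 WT animals of each sex.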
